A study of Mus musculus with 32 samples.

Results

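The comparison asked what 72 h of exposure to lung fibroblast-derived soluble factors (SFs) did to the fibroblasts of a mouse lung organoid culture. It rests on 8 of the 32 libraries of the series, the CCL206 fractions of 4 cultures given SFs and of 4 given vehicle, and on 11493 of the 11818 genes in the table, which passed a filter on low counts. All genes of these 8 libraries were taken, and the treatment and vehicle libraries were matched by the number of the mouse. In the fit, 302 genes differed at an adjusted p under 0.05 (2.63% of those tested), 197 of them higher with SFs (1.71%) and 105 lower (0.914%). The counts of called genes in the lists below are to be read against these shares.

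In each culture 300000 Epcam+ cells from the lung of a mouse had been mixed 1:1 with CCL206 cells. CCL206 is a line of fibroblasts from mouse lung, and mitomycin C at 10 µg/mL for 2 h had blocked its division. Vehicle and SF cultures shared this mixture, the Matrigel bed and the 72 h of culture, and the donors were naive C57BL/6J mice of 8 to 14 weeks. SFs, given at 30 µg/mL, were the late size exclusion chromatography fractions of medium conditioned by MRC5, a human fetal lung fibroblast line, which had been starved of serum for 72 h and concentrated on a 100 kDa filter. Other cultures of the same mice received extracellular vesicles (EVs) from MRC5 or recombinant osteoglycin (OGN) at 10 µg/mL. After 72 h the cells were split with Epcam (CD326) microbeads, and the CCL206 libraries hold the cells that did not bind. The fibroblasts of all 8 libraries are thus the same cell line, and the number of a mouse marks the epithelial cells it was cultured with. The p-values measure the spread between these cultures and not between fibroblast donors.

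Fibroblasts in an alveolar niche supply growth factors and matrix to epithelial progenitors, and they also answer inflammatory signals. A fibroblast exposed to interleukin-1 or tumour necrosis factor activates NF-κB, C/EBPβ and C/EBPδ, and then secretes acute-phase proteins such as serum amyloid A and lipocalin-2, with chemokines that draw neutrophils. Hypoxia-inducible factor 1 (HIF-1) acts on another set of genes, those for glucose uptake, glycolysis, lactate formation and collagen hydroxylation, by binding the hypoxia response element.

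Of 9 fibroblast markers tested, 8 were higher in vehicle CCL206 than in vehicle Epcam libraries and Fbln1 was lower (2.73 against 27.05 CPM). Dcn, which encodes the matrix proteoglycan decorin, averaged 553 CPM (the count of a gene scaled to the library total) in vehicle CCL206 libraries and 109 CPM in vehicle Epcam libraries, and Epcam itself averaged 11.5 CPM against 289 CPM. Library totals separated the groups: the 4 vehicle libraries held 7148561 to 10496280 counts and the 4 SF libraries 5247496 to 5909843. Thinning all 8 libraries to the lowest total gave 273 genes called, of which 252 were among the 302. Epithelial RNA was present in every CCL206 library. Under vehicle Sftpc of AT2 cells stood at 1781 CPM against 4299 CPM in Epcam libraries, and Sftpb at 460.6 against 3855 CPM. Lrrk2, also on the AT2 list, was as high in CCL206 as in Epcam libraries (137.7 against 125.3 CPM), so its level is no measure of epithelial RNA here. The epithelial marker lists were lower with SFs in each mouse, as described with the epithelial genes. Values below are normalized counts, counts scaled by the trimmed mean of M values (TMM) to the geometric mean of the 8 effective library sizes. Log2 fold changes are SFs minus vehicle from edgeR, with their standard errors (SE).

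**Figure D1:**
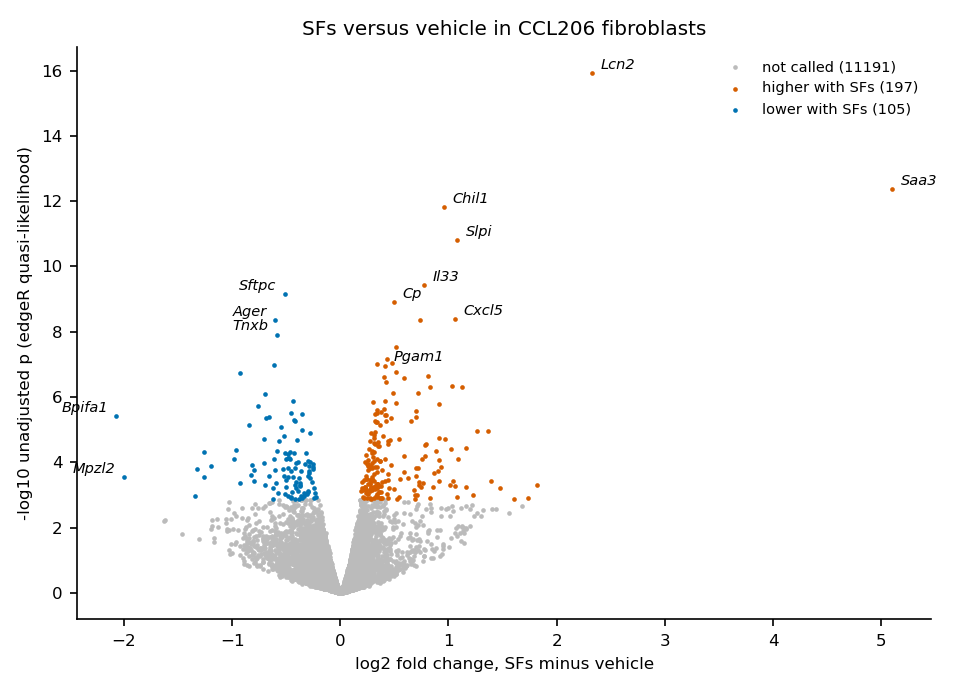
Each of the 11493 genes tested is placed by its log2 fold change (SFs minus vehicle, horizontal axis) and the negative log10 of its unadjusted p (vertical axis). Orange points are the 197 genes higher with SFs, blue points the 105 lower and grey points the rest, and Lcn2 and Saa3 stand apart from the other genes at log2 fold changes of 2.33 and 5.10.

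Most of the 302 changes were small. The median log2 fold change was 0.38 among the higher genes and -0.46 among the lower ones, 29 genes changed by over 2-fold (22 higher, 7 lower), and 210 changed by under 1.5-fold. In 290 of the 302 all 4 mice moved the same way. The 4 SF libraries lay wholly above or below the 4 vehicle libraries for 181 of the 302 genes, against 6.91% of all genes tested. This held for 152 of the 197 higher genes (4.33% of all genes tested were so separated upward) and for 29 of the 105 lower genes (2.58% downward). The calls rested on the matching by mouse and on fitting these 8 libraries alone: without the mouse in the model 47 genes were called, and with all 16 CCL206 libraries of the series in the fit 7, all 7 higher. Leaving out a mouse gave 150 to 209 calls, the fewest without mouse 4.

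Acute-phase and innate defence genes held the 2 largest rises. Of 22 genes on that list 13 were tested, 7 were higher, none was lower, and their median log2 fold change was 0.54 against -0.01 for all genes tested. Saa3, the serum amyloid A gene of fibroblasts and macrophages, had normalized counts of 0.769, 1.01, 2.03 and 8.60 in the vehicle libraries of mice 1 to 4 and of 107, 87.9, 134 and 114 in their SF libraries. It was thus close to undetected without SFs, with at most 12 reads in a vehicle library and at least 64 in an SF library. The fitted change was 34.4-fold (log2 5.10, SE 0.37, adjusted p = 2.45e-09). It depended on vehicle mouse 4, the highest of the 4, and was 6.29 on the log2 scale without that mouse. Lcn2, which encodes the iron-siderophore-binding lipocalin-2, stood at 102, 59.4, 76.4 and 74.5 with vehicle and at 482, 303, 477 and 315 with SFs. The groups did not overlap, and the change was 5.03-fold (log2 2.33, SE 0.12, adjusted p = 1.37e-12).

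Slpi, the gene of an antiprotease of mucosal surfaces, rose from 201, 255, 273 and 281 normalized counts to 519, 493, 597 and 520, a log2 fold change of 1.08 (SE 0.09, adjusted p = 4.54e-08). Chil1, a chitinase-like secreted lectin, read 618, 374, 428 and 253 with vehicle and 1059, 728, 914 and 517 with SFs. Its groups overlapped, while each mouse rose (log2 0.96, SE 0.07, adjusted p = 5.97e-09). Mouse 1 was the highest and mouse 4 the lowest in both groups. The same order was seen in the epithelial markers of these libraries, and Chil1 was higher in Epcam than in CCL206 libraries of the OGN cultures (log2 1.43).

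The other members called were Cp (ceruloplasmin, a ferroxidase, log2 0.49), Cd14 (the lipopolysaccharide co-receptor, 0.54) and Steap4 (a metalloreductase, 0.91), all without overlap of the groups. The Steap4 call was lost without mouse 1, 2 or 3. Lrg1 had a log2 fold change of 1.56 at an adjusted p of 0.0896 and few counts (6.24 against 18.2 on average), and Hp (haptoglobin) and Serpina3n stood at 0.23 and 0.25 without passing the test. C3, the central complement component, rose from 22130 ± 1369 to 27350 ± 1803 normalized counts (SD, n = 4, log2 0.31, adjusted p = 0.000496). Of the 12 genes tested on the complement list it alone rose, while Clu fell (log2 -0.30). Clu was higher in Epcam than in CCL206 libraries of the OGN cultures (log2 4.18), as the epithelial markers that fell were, and its call was lost without mouse 1 or mouse 4. Outside that list the complement gene C1s2 rose, and Hc, the mouse gene of complement C5, fell (log2 -0.76, adjusted p = 0.00062). Hc too was higher in Epcam than in CCL206 libraries of the OGN cultures (log2 1.045).

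The promoters of Saa3, Lcn2 and Slpi, the called genes of this list with the largest rises, are shown, and each holds a C/EBP match. Whether C/EBP proteins acted on these genes was not tested. RefSeq (GRCm38.p6) gave a single start for 7104 of the 11493 genes tested. Among them the C/EBP motif TTNNGCAA, read on both strands, lay within 250 bases before the start in 7.15% of promoters. It lay in 4 of the 9 acute-phase promoters of the list and in 4 of the 5 that rose. These 5 are not all of the 7 genes of the list that rose. Of the single-start promoters of all genes that rose, 12.1% held it. A κB motif lay in 8.57% of all promoters, in 3 of those 9 and in 2 of those 5. The promoters of Chil1 (a κB match and no C/EBP match) and Steap4 (matches to both) are not shown. Each sequence runs 5′ to 3′ on the strand of the gene and ends at the base before the start, and capitals mark the matches to TTNNGCAA, to the κB motif and to the hypoxia response element core ACGTG.

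Saa3, chr7:46715677-46715926, minus strand: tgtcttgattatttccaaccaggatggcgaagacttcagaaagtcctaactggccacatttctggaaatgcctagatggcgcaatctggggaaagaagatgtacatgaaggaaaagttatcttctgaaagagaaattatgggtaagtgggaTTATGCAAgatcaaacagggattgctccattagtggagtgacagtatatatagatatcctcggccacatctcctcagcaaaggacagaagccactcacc

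Lcn2, chr2:32387740-32387989, minus strand: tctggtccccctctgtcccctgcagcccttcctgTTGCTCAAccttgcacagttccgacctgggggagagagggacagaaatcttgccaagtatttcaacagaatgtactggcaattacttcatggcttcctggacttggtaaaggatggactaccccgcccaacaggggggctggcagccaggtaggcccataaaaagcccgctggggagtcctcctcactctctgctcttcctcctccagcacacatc

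Slpi, chr2:164356508-164356757, minus strand: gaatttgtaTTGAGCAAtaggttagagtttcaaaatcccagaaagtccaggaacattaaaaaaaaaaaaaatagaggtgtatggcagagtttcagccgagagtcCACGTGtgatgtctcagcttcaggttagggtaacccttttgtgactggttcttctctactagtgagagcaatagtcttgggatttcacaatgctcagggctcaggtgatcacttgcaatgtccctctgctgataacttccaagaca

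In Saa3 the C/EBP match began 99 bases before the start, in Lcn2 216 bases before it and in Slpi 241 bases before it, and Slpi also held the core ACGTG on both strands, overlapping itself. A match is a stretch of letters and was not a measured site.

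Chemokine genes moved in both directions. Of 14 tested, 4 rose and 2 fell, against 1.71% and 0.914% of all genes tested. The ligands of the neutrophil receptor Cxcr2 were the ones that rose most: Cxcl5 went from 271, 372, 230 and 275 normalized counts to 642, 475, 681 and 569 (log2 1.06, SE 0.12, adjusted p = 5.08e-06), Cxcl3 rose by 1.23 from few counts (16.6 on average), and Cxcl1 rose by 0.39. The Cxcl3 call was lost without any 1 of the 4 mice. Cxcl5 was separated between the groups, with its smallest rise in mouse 2. Ccl2, the monocyte chemoattractant, rose by 0.29 in 3 of 4 mice, a call lost without mouse 1, 3 or 4 and in 9 of 14 alternatives, and Ccl20 stood at 1.12 without passing (adjusted p = 0.151).

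Cxcl1 and the prostaglandin synthase gene Ptgs2 also differed between mice. Cxcl1 read 747, 890, 350 and 430 with vehicle and 1001, 986, 509 and 601 with SFs, so that mice 1 and 2 were high and mice 3 and 4 low in both groups. Ptgs2 showed the same split at 1579, 1559, 590 and 520 with vehicle and 1753, 1669, 924 and 807 with SFs. Each mouse rose for both genes (Ptgs2 log2 0.36, SE 0.08, adjusted p = 0.00861, lost without mouse 3 or mouse 4). The Cxcl1 promoter is shown because it holds overlapping κB matches in both orientations, 71 and 70 bases before the start.

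Cxcl1, chr5:90890995-90891244, plus strand: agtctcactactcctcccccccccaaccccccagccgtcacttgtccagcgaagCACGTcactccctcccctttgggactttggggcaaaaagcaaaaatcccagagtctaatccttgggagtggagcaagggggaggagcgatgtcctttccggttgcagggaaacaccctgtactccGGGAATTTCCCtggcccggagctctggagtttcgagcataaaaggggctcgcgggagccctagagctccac

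Cxcl12 (the ligand of Cxcr4) and Cx3cl1 (fractalkine) fell. Cxcl12 read 4097, 4981, 5463 and 6251 normalized counts with vehicle and 3419, 3959, 4599 and 5124 with SFs, lower in each mouse although the groups overlapped (log2 -0.28, SE 0.05, adjusted p = 0.00225). Cx3cl1 fell by 0.35 on the log2 scale (adjusted p = 0.000894). Cx3cl1 showed the split of the mice again, at 2933 and 2992 in mice 1 and 2 against 2323 and 2346 in mice 3 and 4 with vehicle.

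Il33, the nuclear alarmin of barrier cells, was the only 1 of 7 genes tested on the cytokine list to pass. That list does not hold Mif, which also rose (log2 0.52). The normalized counts of Il33 were 518, 467, 378 and 386 with vehicle and 860, 671, 731 and 711 with SFs, with no overlap (log2 0.77, SE 0.08, adjusted p = 8.61e-07). Of the 25 genes of the NF-κB pathway and its feedback loops, Sod2 (mitochondrial superoxide dismutase, log2 0.48) and Ptgs2 rose and Vcam1, an adhesion molecule, fell (log2 -0.25, a call lost without mouse 2 or mouse 4). The inhibitor gene Nfkbia stood at 0.03 and the subunit gene Nfkb1 at 0.07, neither passing, and the median of the list was 0.01.

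**Figure D2:**
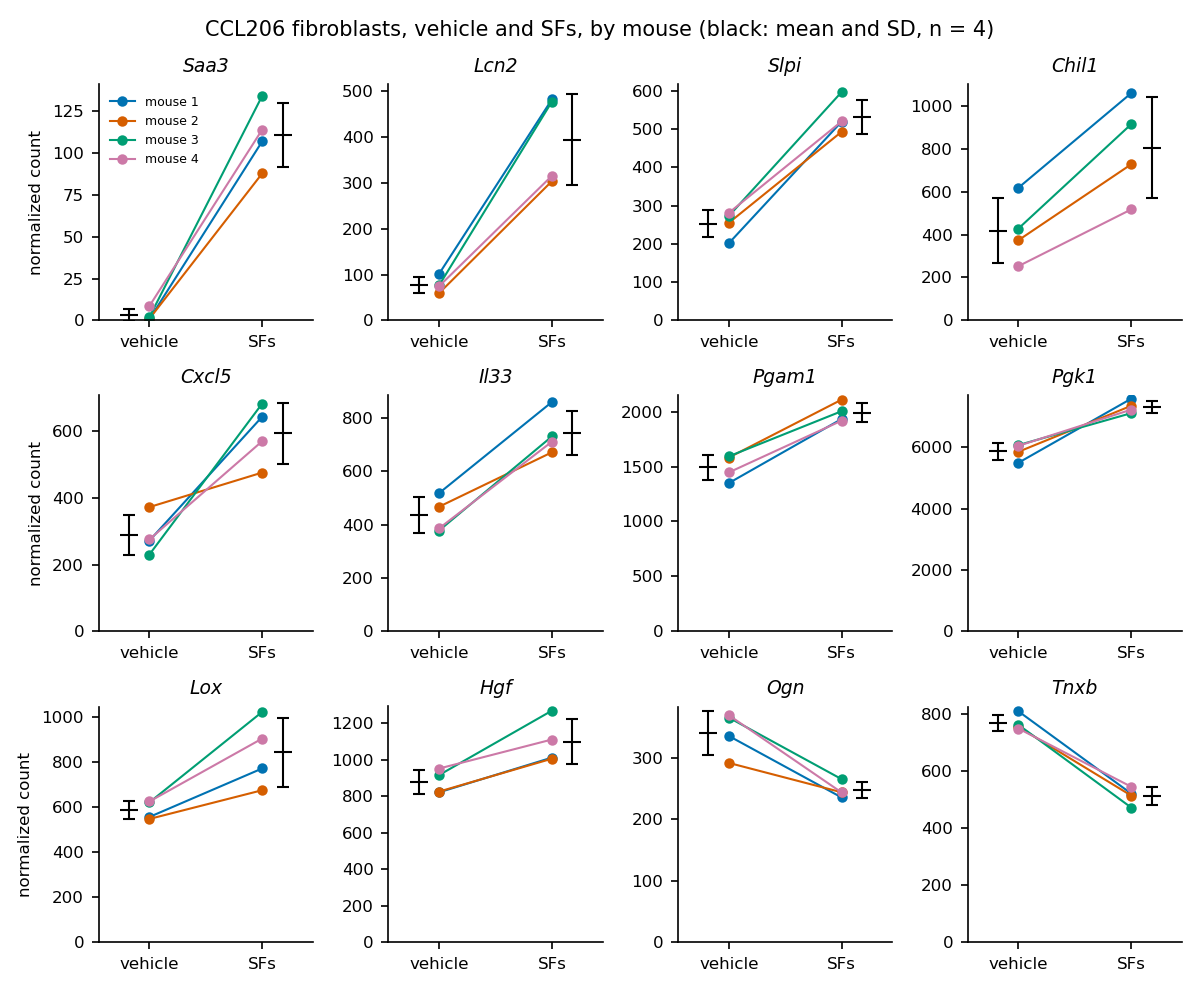
Normalized counts (vertical axis, from 0) of 12 genes in the vehicle and SF libraries of CCL206 fibroblasts, with a line joining the libraries of each of the 4 mice and a black mark and bar for the mean and SD (n = 4). Saa3, Lcn2, Slpi, Cxcl5, Il33, Pgam1, Pgk1, Lox and Hgf lie higher with SFs without overlap, Chil1 rises in each mouse with overlap, and Ogn and Tnxb lie lower without overlap.

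Glycolysis and hypoxia-response genes rose in small steps and in 1 direction. Of 31 tested, 13 rose and none fell, 27 had a log2 fold change above 0, and the median was 0.24. That median was 0.31, 0.21, 0.27 and 0.21 in mice 1 to 4 taken separately, and in the fit of all 16 CCL206 libraries none of the list was called. The genes called were the glucose transporter Slc2a1 (log2 0.31), Gpi1 (0.28), the phosphofructokinases Pfkl (0.34) and Pfkm (0.29), Tpi1 (0.32), Gapdh (0.23), Pgk1 (0.32), Pgam1 (0.42), Pkm (0.24) and the lactate dehydrogenase Ldha (0.28). With them rose Pdk1 (0.31), the kinase that shuts pyruvate out of mitochondria, the mitophagy receptor Bnip3 (0.37) and the angiogenic factor Vegfa (0.42). Without mouse 2 the calls on Gpi1, Pfkm, Gapdh and Pkm were lost, without mouse 4 those on Pfkm and Gapdh, and without mouse 1 that on Pfkm.

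Pgam1, phosphoglycerate mutase, had 1349, 1581, 1592 and 1446 normalized counts with vehicle and 1932, 2108, 2003 and 1917 with SFs (SE 0.06, adjusted p = 7.33e-05). Pgk1, phosphoglycerate kinase, had 5495, 5853, 6071 and 6047 with vehicle and 7582, 7351, 7111 and 7226 with SFs (SE 0.05, adjusted p = 0.000894). Vegfa had 1712, 1843, 1441 and 1375 with vehicle and 2312, 2103, 2088 and 1993 with SFs (SE 0.06, adjusted p = 0.000172). For all 13 genes the 4 SF libraries lay above the 4 vehicle libraries, as they did for 152 of all 197 genes called higher. Aldoa (0.15) and Eno1 (0.19) were also separated without passing, the hexokinase genes Hk1 (0.13) and Hk2 (0.09) did not pass, Hif1a, the oxygen-regulated subunit of HIF-1, stood at 0.22 (adjusted p = 0.118), and Bhlhe40 and Ndrg1 lay below 0 at -0.25 and -0.19.

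The hypoxia response element core ACGTG lay in 22.6% of the 7104 promoters with a single start, in 12 of 20 such promoters of this list and in 4 of the 8 whose genes rose. Of the 91 such promoters of all genes that rose, 20 held it (22%). The promoters of Pgk1 and Pgam1 are shown for their matches. Pgk1 held the core 150 bases before the start on the strand of the gene and 131 bases before it on the other strand, beside a κB match 188 bases before it, and Pgam1 held it 114 bases before the start. The other 2 genes that rose and held the core in this window were Slc2a1 and Bnip3.

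Pgk1, chrX:106186850-106187099, plus strand: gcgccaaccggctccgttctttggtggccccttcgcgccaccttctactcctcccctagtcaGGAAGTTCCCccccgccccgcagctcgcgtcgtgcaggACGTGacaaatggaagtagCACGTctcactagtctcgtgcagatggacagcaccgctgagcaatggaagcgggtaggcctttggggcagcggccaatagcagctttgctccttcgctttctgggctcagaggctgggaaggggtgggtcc

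Pgam1, chr19:41911621-41911870, plus strand: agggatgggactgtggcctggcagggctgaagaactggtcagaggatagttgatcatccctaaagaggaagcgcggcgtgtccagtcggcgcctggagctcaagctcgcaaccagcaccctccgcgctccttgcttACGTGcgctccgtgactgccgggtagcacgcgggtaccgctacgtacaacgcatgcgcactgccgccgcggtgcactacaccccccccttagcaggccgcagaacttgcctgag

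Of 36 matrix-modifying enzymes 3 rose (1.71% of all genes tested did), and all 3 are known targets of HIF-1. Lox, which cross-links collagen and elastin, went from 557, 548, 622 and 625 normalized counts to 772, 675, 1023 and 905 (log2 0.51, SE 0.07, adjusted p = 0.000106). P4ha2 (log2 0.41) and Plod2 (0.34), the collagen prolyl and lysyl hydroxylases, rose without overlap, while Plau, urokinase, fell (-0.37). The Plod2 call was lost without mouse 3 and the Plau call without mouse 1, 2 or 4. Adamts7, a metalloprotease outside that list, rose from 334 ± 10.9 to 559 ± 44.1 (SD, n = 4; log2 0.74, SE 0.08, adjusted p = 5.08e-06).

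Structural matrix genes moved in both directions by small steps. Of 40 collagens and glycoproteins, Fbln2 (log2 0.20) and Emilin1 (0.26) rose, Lama2 fell (-0.36), and 37 did not pass, among them Col1a1 (0.12), Col3a1 (0.17) and Fn1 (0.02). At an unadjusted p under 0.05 there were 12 higher and 7 lower of these 40, against 1735 of all 11493 genes. The Fbln2 call was lost without mouse 2, 3 or 4, the Emilin1 call without mouse 4 and the Lama2 call without mouse 2 or 4. Tnxb, which encodes tenascin-X, was the fibroblast gene that fell with the smallest p: it read 808, 753, 761 and 748 with vehicle and 520, 513, 472 and 544 with SFs (log2 -0.58, SE 0.07, adjusted p = 1.28e-05).

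The small leucine-rich proteoglycans split. Dcn (log2 0.34, adjusted p = 0.000745) and Lum (0.32, adjusted p = 0.011) rose, Ogn and Prelp fell, and Bgn stood at 0.01. Ogn, the mouse gene of the osteoglycin that the study tested as a treatment, had 336, 292, 366 and 370 normalized counts with vehicle and 236, 244, 266 and 244 with SFs, with no overlap (log2 -0.46, SE 0.10, adjusted p = 0.00796). Without mouse 4 the call on Ogn was lost. Prelp lay close to the threshold (log2 -0.46, adjusted p = 0.0491) and its call was lost without mouse 2, 3 or 4, as was that of Lum without mouse 2 or 3.

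Growth factors for epithelium gave 5 calls among 28 genes tested, of which 3 were higher and 2 lower. Of all genes tested 1.71% were higher and 0.914% lower. Hgf, the ligand of Met, had 822, 826, 916 and 952 normalized counts with vehicle and 1012, 1006, 1269 and 1111 with SFs, separated by a narrow gap (log2 0.32, SE 0.06, adjusted p = 0.00382). Fgf7, keratinocyte growth factor, had 583, 626, 563 and 615 with vehicle and 676, 625, 914 and 817 with SFs. It rose in 3 of 4 mice (log2 0.34, SE 0.08, adjusted p = 0.0252), mouse 2 being level. Without mouse 3 both calls were lost, and without mouse 4 that of Fgf7. Fgf10 stood at 0.28 (adjusted p = 0.112), Fgf2 at 0.17 (0.411) and Wnt5a at -0.05 (0.864).

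Ptn, the heparin-binding growth factor pleiotrophin, fell from 165, 234, 217 and 259 to 144, 166, 112 and 150 normalized counts (log2 -0.61, SE 0.13, adjusted p = 0.00789), a call lost without mouse 3 or mouse 4. Ccn1 fell by 0.59 on the log2 scale with mice 1 and 2 high at 1812 and 1715 against 463 and 542 in mice 3 and 4 with vehicle. Its 4 SF libraries, at 986, 625, 535 and 514, fell within the range of the vehicle ones, and mouse 3 did not fall. The Ccn1 call was lost without mouse 1 or mouse 2 and the Hsd11b1 call without mouse 2. Hsd11b1, the enzyme that regenerates active glucocorticoid, rose from 51.0 ± 12.6 to 95.6 ± 8.96 (SD, n = 4; log2 0.91, SE 0.20, adjusted p = 0.00841), and no other of 14 glucocorticoid-response genes passed.

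Iron-handling genes overlapped with the acute-phase list. Fth1, ferritin heavy chain, rose by 0.20 on the log2 scale beside Cp, Steap4 and Lcn2, and Slc40a1, the iron exporter ferroportin, fell by 0.42 (adjusted p = 0.0265). Fth1 was not called without mouse 2, 3 or 4, nor Slc40a1 without mouse 1, 2 or 4. Other genes among those with the smallest p were Mif (macrophage migration inhibitory factor, log2 0.52), Tnfrsf9 (the receptor 4-1BB, 0.43) and Spp1 (osteopontin, 0.34), the last one of the most abundant messages at 36460 ± 888.5 against 46270 ± 1311 normalized counts (SD, n = 4).

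**Figure D3:**
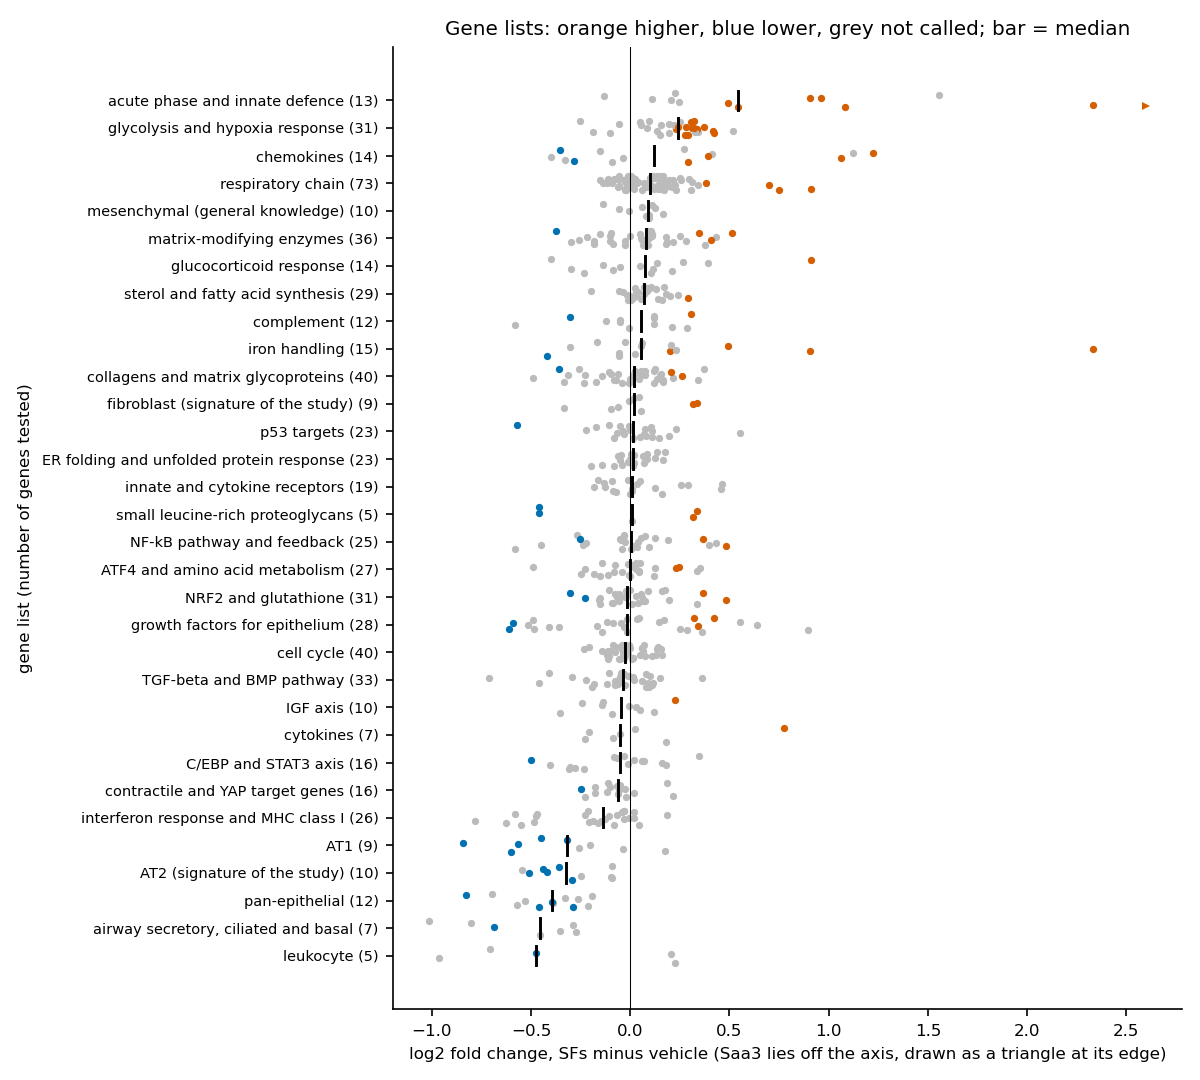
Log2 fold change (SFs minus vehicle, horizontal axis) of every tested gene of each list (vertical axis, number tested in brackets) with at least 3 genes tested, ordered by the median, which is the black bar. Orange points were higher, blue points lower and grey points not called, and Saa3 lies beyond the axis at 5.10. The acute-phase list (median 0.54) and the glycolysis list (0.24) stand at the top, and the epithelial and leukocyte marker lists, with medians from -0.32 to -0.48, at the bottom.

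Most of the genes that fell were higher in epithelium. Among the 200 genes over 8-fold higher in Epcam than in CCL206 libraries of the OGN cultures, which shared no library with this comparison, 17 fell and none rose, with a median log2 fold change of -0.40. That median was below 0 in each mouse, at -0.55, -0.28, -0.32 and -0.35. Together with the genes 2- to 8-fold higher in Epcam cells, of which 46 fell and 31 rose, they made up 43.8% and 16.2% of the 105 lower genes while being 14.1% and 1.74% of the genes tested. Of the 1904 genes at least 2-fold higher in CCL206 libraries, 71 rose and 20 fell.

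All the alveolar type 2 (AT2) markers and the pan-epithelial markers lay below 0. Of 10 AT2 genes 5 fell, of 9 alveolar type 1 (AT1) genes 5 fell, of 12 pan-epithelial genes 4 fell, and none of the 31 rose. Of all genes tested 0.914% fell. Sftpc, the surfactant protein C gene of AT2 cells, had 19150, 12160, 13260 and 7185 normalized counts with vehicle and 12790, 7919, 9428 and 5623 with SFs (log2 -0.51, SE 0.05, adjusted p = 1.3e-06). Ager, the receptor gene that marks AT1 cells, had 1271, 724, 771 and 464 with vehicle and 878, 454, 512 and 300.4 with SFs (log2 -0.60, SE 0.07, adjusted p = 5.08e-06). The groups overlapped for both, with mouse 1 highest and mouse 4 lowest in each group, and each mouse fell. Without the mouse in the model none of these 14 epithelial calls passed.

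Cdh1 (E-cadherin, log2 -0.46), Krt8 (-0.29), Krt7 (-0.40), Slc34a2 (a phosphate transporter of AT2 cells, -0.44) and Cldn18 (a tight junction claudin, -0.45) fell in each mouse, and mouse 4 was the lowest in both groups for all 5. Of 7 airway genes Scgb1a1, the club cell secretoglobin, fell (log2 -0.69, adjusted p = 0.00104). Bpifa1, an airway secretory protein outside that list, went from 73.0, 38.3, 96.0 and 32.2 to 8.51, 10.98, 44.3 and 1.23 normalized counts (log2 -2.07, SE 0.35, adjusted p = 0.00093). The Cdh1 call was lost without mouse 1 and the Krt8 call without mouse 4. Epcam itself stood at -0.26 (adjusted p = 0.585).

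Mean log2 CPM of the AT2 list fell in each mouse by 0.17 to 0.52, with a mean difference of -0.31. For the AT1 list the difference was -0.35 and for the pan-epithelial list -0.43, again lower in each mouse, and for the fibroblast list it was 0.01. Over libraries the 2-sided exact permutation p was 0.4, 0.286, 0.343 and 0.886 for these lists, and the exact sign-flip p over 4 mice was 0.125 for the epithelial lists, the smallest that 4 mice allow. The summed level of the 10 AT2 genes ran from 1895 to 4916 CPM in vehicle and from 1612 to 3339 CPM in SF libraries. Of 14 leukocyte markers 5 were tested, Cd74 fell (log2 -0.48, lost without mouse 4) and Ptprc, the pan-leukocyte gene, was not among those tested.

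In bulk libraries fewer cells of a type and less RNA per cell cannot be told apart, so these values do not say whether fewer epithelial cells or less of their RNA entered the CCL206 fraction. Epithelial level and SFs moved together in every mouse. With the mean epithelial marker level of each library as a covariate, added after these values were seen, 2 residual degrees of freedom remained and 7 genes were called, 2 of them among the 302. In that fit 2 of the 7 acute-phase calls passed, Lcn2 and Chil1, and none of the 13 glycolysis calls did. The median of the glycolysis list stood at 0.17, with Vegfa at 0.34, Pdk1 at 0.30 and Pgam1 at 0.21 but Pgk1 at 0.07 and Tpi1 at -0.05, and Saa3 stood at 5.23. Genes that rose lay on both sides of the log2 ratio of Epcam over CCL206 libraries in the OGN cultures. It was -1.29 for Saa3, -2.07 for Lox, -2.96 for Hgf and -2.63 for Dcn, near 0 for Il33 (0.15) and Lcn2 (0.23), and above 0 for Cxcl5 (1.11), Cxcl3 (2.04) and Cd14 (2.14), against 2.83 for Sftpb. OGN itself raised Lcn2 (log2 5.15), Il33 (1.85) and Saa3 (9.20) in fibroblasts, so their ratios differ in other cultures. Under vehicle Lcn2 averaged 37.4 CPM in Epcam and 10.7 CPM in CCL206 libraries, and Il33 159.9 and 60.25 CPM. With SFs Saa3 averaged 12.6 CPM in Epcam and 15.3 CPM in CCL206 libraries. Hgf was lower in Epcam libraries under vehicle too (14.05 against 121.1 CPM).

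**Figure D4:**
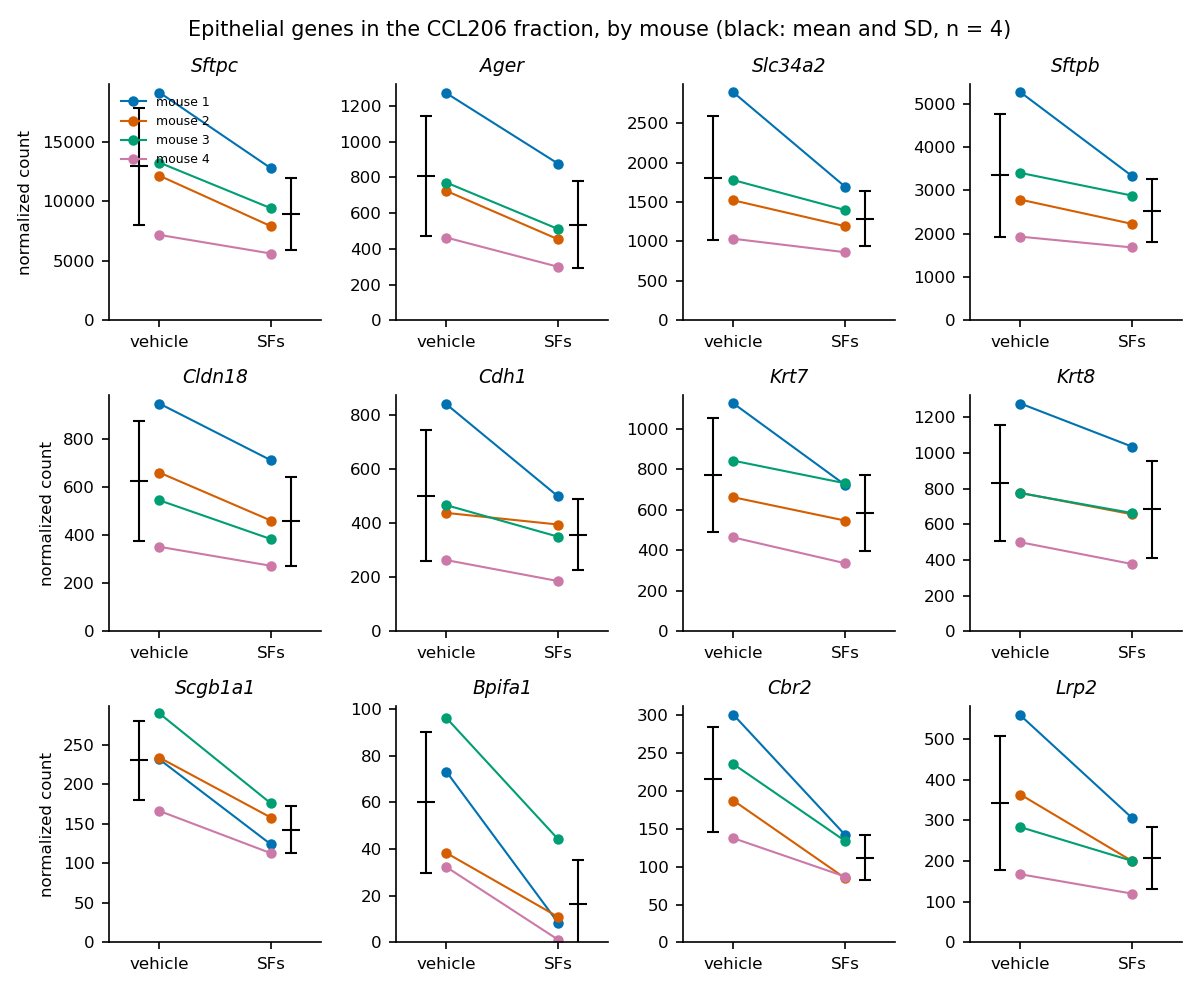
Normalized counts (vertical axis, from 0) of 12 epithelial genes in the CCL206 libraries with vehicle and SFs, joined by mouse, with the mean and SD (n = 4) in black. Each line falls from vehicle to SFs, and mouse 1 lies above mouse 4 in both groups for Sftpc, Ager and Cdh1.

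A separate feature of these libraries concerned short genes and gene copies. Of 227 annotated pseudogenes tested 38 were higher and none lower, with a median log2 fold change of 0.47 that was 0.42, 0.23, 0.40 and 0.71 in mice 1 to 4. Their reads can belong to the parent gene, so these values are uncertain as expression of the copies. Gm10177 (log2 1.81), Rbm3-ps (1.74), Rps13-ps1 (1.61) and Gpi-ps (1.48) were the highest called by size after Saa3 and Lcn2, from at most 20 reads in a vehicle library. Each of these 4 calls was lost without mouse 2, without mouse 3 or without mouse 4, and those on Gm10177 and Rps13-ps1 also without mouse 1. Among 75 cytosolic ribosomal protein genes 7 rose, with a median of 0.11 that was 0.42 in mouse 1 and between -0.04 and 0.07 in the others. Both counts compare with 1.71% higher among all genes tested.

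When genes were split into 5 classes of transcript length, the shortest (67 to 1917 nt) held 94 of the 197 higher genes and had a median log2 fold change of 0.05, and the longest held 20 of them at a median of -0.03. The slope was steepest in mouse 1, with medians of 0.17 and -0.12. With a length trend removed from each library 21 of the pseudogenes and 17 of the glycolysis genes were higher, and the acute-phase count was again 7. The pseudogene count was 10 without mouse 4.

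Of the 15 mitochondrially encoded genes tested, mt-Atp6 (log2 0.91, adjusted p = 0.000562), mt-Co2 (0.70) and mt-Co3 (0.75) rose. Their levels of 235, 296 and 291 normalized counts with vehicle were far below those of mt-Co1 (61140), mt-Cytb (32150) and mt-Nd1 (21300), whose log2 fold changes were -0.07, -0.03 and 0.00. Nuclear copies of parts of the mitochondrial genome exist, so the assignment of reads to these genes is uncertain, and vehicle mouse 4 was the lowest library for all 3 that rose. The calls on mt-Co2 and mt-Co3 were lost without mouse 4. The nuclear subunit gene Uqcrq (complex III) rose by 0.38, a call lost without mouse 1, 2 or 4, and no other of the 73 respiratory chain genes passed.

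**Figure D5:**
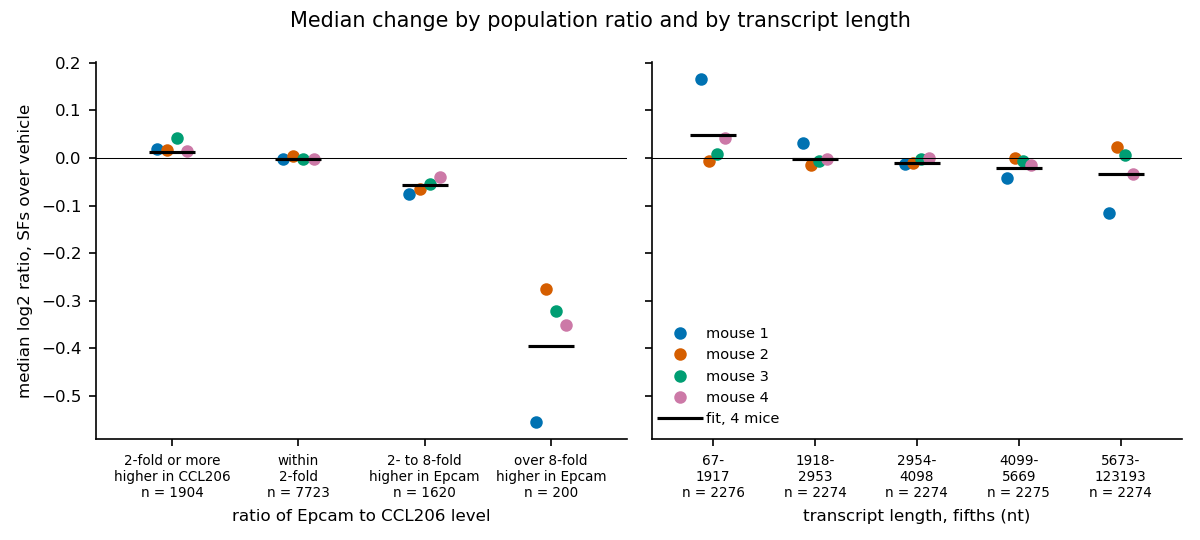
Median log2 ratio of SFs over vehicle (vertical axis) for genes grouped by their ratio between Epcam and CCL206 libraries of the OGN cultures (left) and by transcript length in nucleotides (right), with colored points for mice and black marks for the fit over all 4. Genes over 8-fold higher in Epcam cells lie at -0.40, and in the length classes mouse 1 runs from 0.17 to -0.12 while the fit runs from 0.05 to -0.03.

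The other treatments of the same fibroblasts give the scale of these values. The log2 fold changes against vehicle, which share the 4 vehicle libraries, were 2.33 with SFs, 5.15 with OGN and 2.11 with EVs for Lcn2, and 5.10, 9.20 and 4.85 for Saa3. For Il33 they were 0.77, 1.85 and 0.71, for Cxcl5 1.06, 2.88 and 0.87, and for Slc2a1 0.31, 1.27 and 0.36. Lox stood at 0.51 with SFs, 1.46 with OGN and 0.12 with EVs, and Hgf at 0.32, 1.30 and -0.36. The mouse Ogn gene stood at -0.46 with SFs, -1.33 with OGN and -0.59 with EVs. The fitted coefficient of variation between replicates was 0.199 for EVs, 0.083 for SFs and 0.100 for OGN. Against vehicle in edgeR, Lcn2 (adjusted p = 0.00855), Saa3 (0.027), Il33 (0.0468) and Cxcl5 (0.0468) passed with EVs and Lox did not (0.625).

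Compared directly, SF and OGN fibroblasts differed in 1282 of 11467 genes (11.2%), 573 higher with SFs and 709 lower. Saa3 was lower with SFs than with OGN by 4.16 log2 units (SE 0.10, adjusted p = 2.16e-16), Lcn2 by 2.83 (SE 0.09, adjusted p = 6.83e-15) and Slc2a1 by 0.97 (SE 0.06, adjusted p = 1.72e-09). Ogn was higher by 0.88 (SE 0.13, adjusted p = 8.18e-05) and Cxcl12 by 0.74 (SE 0.06, adjusted p = 2.67e-08). Vegfa (-0.10, SE 0.09, adjusted p = 0.538), Ccl2 (-0.07, SE 0.08, adjusted p = 0.676) and Sftpc (-0.03, SE 0.08, adjusted p = 0.898) did not pass. The mitochondrial gene mt-Atp6 was higher with SFs by 0.89 (SE 0.15, adjusted p = 0.000304) and stood at 0.03 with OGN against vehicle.

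The Epcam cells of the same cultures were tested for a different response to SFs. The interaction of treatment and population passed for 32 of 11759 genes (0.272%). Il33 rose more in fibroblasts (0.77 against 0.17 in Epcam cells, difference 0.60, SE 0.11, adjusted p = 0.0173). Lcn2 (2.33 and 1.91, adjusted p = 0.378), Saa3 (5.10 and 3.87, adjusted p = 0.486), Cxcl5 (1.06 and 1.28, adjusted p = 0.706) and Pgam1 (0.42 and -0.03, adjusted p = 0.0518) did not pass the test of the difference. Epcam libraries hold fibroblast RNA as well, with Dcn at 109 CPM under vehicle, and this count of 32 fell to 0 without mouse 1 or without mouse 4 and to 2 without mouse 3.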

How the data were processed

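RNA from Epcam+ and CCL206 fractions was sequenced in 32 libraries (4 mice, 4 treatments, 2 fractions). The authors deposited raw read counts per gene in 1 table of 11818 genes, with a lowest count of 1 for 660 of them. The submitters' notes name Trimmomatic 0.30 and DESeq2 1.34.0, and the aligner and counting tool are not given in the sources used here. Libraries were placed by their labels, and all columns were used or mapped. The 8 CCL206 libraries with SFs or vehicle were fitted alone with edgeR 4.0.16 (R 4.3.3, limma 3.58.1), using filterByExpr, TMM factors, mouse and treatment in the model, the quasi-likelihood test and Benjamini-Hochberg adjustment over all genes tested (adjusted p under 0.05). Same-numbered libraries share the mouse, and their deviations correlated at 0.0602 to 0.329 (mean 0.199), against a mean of -0.0663 for different mice. The lowest value, that of mouse 2, lay below the 0.103 of vehicle mouse 2 with SF mouse 1. No libraries were duplicates, since the lowest chi-square per degree of freedom over 12 pairs was 3.01. Direct comparisons with OGN and the interaction with Epcam cells used the same model. Marker lists were compared by exact permutation of libraries (70 regroupings, smallest p 0.0286) on log2 CPM with a prior count of 2. In data simulated on these libraries 45 of 66 changes of 1.5-fold, 64 of 66 of 2-fold and 65 of 65 of 4-fold were called, and 10 unchanged genes of 11461 genes. The simulation held no differences between mice or in epithelial RNA. It held no change under 1.5-fold, the size of 210 of the 302 calls. Lengths and gene types came from GENCODE on GRCm39, matched by symbol, and promoters from RefSeq on GRCm38.p6.

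The named genes were the 15 with the smallest p and the 6 with the largest change per direction, all called members of 25 gene lists and 9 marker lists, and a few growth factor and acute-phase genes. The text does not describe each of them. Those left out include Rps18-ps6, which was higher, and Cbr2, Lpcat1, Aox3, Atp6v1c2, Sec14l4, Col4a4, Napsa, Ctsh and Gprc5a, which were lower. Uncalled list members given in the text were chosen after their values were seen. The members and lists were chosen with earlier results of these data known. One list and 1 of its members are not reported here. Alternatives left out the mouse, used DESeq2 size factors or its Wald test (DESeq2 1.42.0), other filters, other sets of libraries, thinned counts, a transcript length correction and 3 of the 4 mice.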

Additional observations from a re-analysis of the deposited data

Results flagged for a closer look

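In 8 of 212 groups of 4 libraries looked at, 1 library stood far from the other 3 by Dixon's criterion, which chance meets in about 1 in 20 groups. Vehicle mouse 4 was high for Saa3 at 8.597 normalized counts (0.769 to 2.03 in the others) and for Steap4 at 68.06 (37.3 to 39.2). Vehicle mouse 1 was low for Prdx5 at 940.3, while SF mouse 1 was high for it at 1677. SF mouse 2 was high for Sod2 at 944.4, SF mouse 1 for Mpzl2 at 17.02 and SF mouse 4 for Vcl at 2604, and vehicle mouse 3 was low for Wnt5a at 499.1.

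The effect of SFs differed between CCL206 fibroblasts and Epcam cells for 12 named genes by the interaction test in edgeR. The difference was above 0 for Il33 (0.6042) and Uqcrq (0.7156). It was below 0, with the gene lower in the CCL206 fraction, for Ndnf (-0.6255), Lrp2 (-0.8755), Slc34a2 (-0.5704), Sorl1 (-0.6647), Mpzl2 (-1.856), Hook1 (-1.189), Akap5 (-0.9066) and Esrp2 (-0.8826), all at an adjusted p of 0.0173 as for the pair above. Bpifa1 (-1.344, adjusted p = 0.0287) and Clic5 (-0.6164, adjusted p = 0.0401) passed too. All 10 of these were more than 2-fold higher in Epcam than in CCL206 libraries of the OGN cultures.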

How the results depend on the processing

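The calls depended most on the model. Of 302 genes (197 higher, 105 lower), 47 (45 and 2) were called with no replicate block, 147 (98 and 49) by DESeq2's Wald test, 7 (7 and 0) with 16 CCL206 libraries and 108 (85 and 23) with 12 libraries without EVs. With the transcript length trend removed 397 were called, 296 of them higher, and with the epithelial covariate, added after the data were seen, 7 (2 and 5). Leaving out a mouse gave 150 to 209 calls, 80 to 158 higher and 51 to 101 lower. The cause of these shifts was not tested, apart from the fewer samples when a mouse was left out and the 2 residual degrees of freedom with the covariate. RLE factors (307), every gene (303), a minimum of 10 counts (293) and thinning (273) stayed within 1.5 times. SFs against OGN gave 775 calls with no replicate block and 628 to 1324 without a mouse. The interaction gave 0 with no replicate block (883 at an unadjusted p under 0.05), 46 with RLE factors or every gene, 83 by DESeq2 and 0 to 125 without a mouse.

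Wnt5a, not called, stood at 0.009894 with the length trend removed, 0.6273 with the covariate and between -0.1566 and 0.05591 without a mouse. With the covariate these named genes also changed sign: Mif -0.002122, Ndnf 0.1424, Slc34a2 0.1158, Bpifa1 0.6162, Hook1 0.203, Btg2 0.0416, Cdh1 0.1733, Clic5 0.09898, Clu 0.2315, Fth1 -0.02792, Krt7 0.1757, Plau 0.003562, Prdx5 -0.4638, Sftpb 0.1423, Slc40a1 0.3605 and Tpi1 -0.04532. Of 103 named calls, 96 were lost with 16 libraries, 85 with the covariate, 77 with no replicate block and none with RLE factors. SF libraries were the shallower ones, and 1.5-fold changes were missed more often than larger ones in simulated data.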

Other observations

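Several gene groups gave few or no calls. Their counts at an unadjusted p under 0.05 in edgeR are to be read against 1735 of all 11493 genes tested. Of 40 cell cycle genes edgeR called none (1 at an unadjusted p under 0.05) and DESeq2 none, in cells whose division had been stopped. None of 26 interferon response and MHC class I genes was called (5 unadjusted, none by DESeq2), with 22 below 0 and a median log2 fold change of -0.14. None of 23 endoplasmic reticulum folding genes (4 unadjusted), 19 innate and cytokine receptors (4 unadjusted) or 10 general mesenchymal genes (3 unadjusted) was called, and DESeq2 called none of them either.

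Single calls came from other lists. The C/EBP and STAT3 axis (16 genes) gave Cebpa, which fell by 0.50 and was higher in Epcam cells, the 16 contractile and YAP target genes gave Vcl (-0.25), and the 23 p53 targets gave Btg2 (-0.57, lower in 2 of 4 mice). Elovl6 rose among 29 sterol and fatty acid genes (0.29) and Igfbp4 among 10 genes of the IGF axis (0.23). Atf5 (0.23) and Nupr1 (0.25) rose among 27 genes of the ATF4 and amino acid list. Among 31 NRF2 and glutathione genes Sod2 and Prdx5 rose and Gsta4 (-0.30) and Prdx6 (-0.23) fell, the last pair being higher in Epcam than in CCL206 libraries of the OGN cultures (log2 2.87 and 2.27). Each gene named here but Sod2 and Dcn lost its call when 1 or more of the mice was left out, and Cebpa, Atf5 and Gsta4 lost it without any 1 of the 4. Of the 9 fibroblast genes tested from the signature of the study Dcn and Lum rose, and 1 endothelial and 2 mesothelial genes were tested and not called.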
